A study of Mus musculus with 6 samples.

Results

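The genes described are 9 genes whose products stabilize actin filaments or tie them to each other: the tropomyosins Tpm1, Tpm2, Tpm3 and Tpm4, the filamin Flna, the alpha-actinins Actn1 and Actn4, the plastin Lcp1 and the scaffold Iqgap1. They were chosen by name, as every entry of the deposited table under one of these symbols, which gave 9 of 20458 gene names and 21 of 25017 entries. Follicular B cells were sorted from C57BL/6 mice as B220-positive cells lacking AA4.1, with CD23 and low CD21, and their RNA was amplified and sequenced. There were 3 samples of CD23Cre+Myh9wt/fl mice and 3 of CD23Cre+Myh9fl/fl mice (6 in all). Both groups carry a Cre recombinase driven by the promoter of CD23 (Fcer2a). Myh9, the heavy chain gene of myosin IIa, carries LoxP sites around one exon on 1 allele in wt/fl mice and on both alleles in fl/fl mice, so that the comparison group is haploinsufficient and not wild-type. The labels of these samples give no age or sex for the mice, and the study's methods give age ranges by kind of experiment without naming the sequencing. The comparison asks how the genes of the actin network compared between cells that keep an intact Myh9 allele and cells that do not.

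Actin filaments form a cortex under the plasma membrane of lymphocytes, and myosin II motors pull on it. Tropomyosins lie along filaments in a head-to-tail string and govern which proteins, myosins included, can reach the filament. Filamins, alpha-actinins and plastins hold filaments together in webs or bundles, and IQGAP proteins join filaments to small GTPases.

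Each level is in FPKM, fragments scaled to transcript length and sequencing output, as 1 value per genotype that the authors pooled over its 3 samples, and the entries of a gene were summed. No spread between mice can be given, so no difference was tested, and higher or lower refers to these pooled values. The log2 ratio is that of FPKM + 1, fl/fl over wt/fl, and a gene is past the 1.5-fold line where FPKM + 1 differed at least 1.5-fold. In pooled RNA of many cells, fewer cells of a type and less RNA per cell cannot be told apart. Myh9 itself was at 50.6 FPKM in wt/fl cells and 21.1 FPKM in fl/fl cells (log2 ratio -1.22), in the direction of the labels. An entry covers the whole coding sequence, so fragments from exons outside the deleted one still count toward it.

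Of the 9 genes, 7 had a mean of at least 1 FPKM over both genotypes and entered the counts. All 7 had a higher FPKM in fl/fl, Tpm4 by a log2 ratio of only 0.0047, which became -0.01 when ratios were centred on the median of genes averaging 20 FPKM or more. None of the 7 was past the 1.5-fold line, against 2.32% of the 9866 genes that reached this mean. The median log2 ratio of the 7 was 0.14. Among all genes compared, 50.5% were higher in fl/fl, with a median log2 ratio of 0.0026. Since the 7 genes all had a mean above 20 FPKM, the 3764 genes of at least that mean are a nearer reference. Of these, 54.3% were higher, the median log2 ratio was 0.015, and the middle 80% lay between -0.17 and 0.19. Actn1 and Tpm2 stayed under 1 FPKM in both genotypes.

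**Figure D1:**
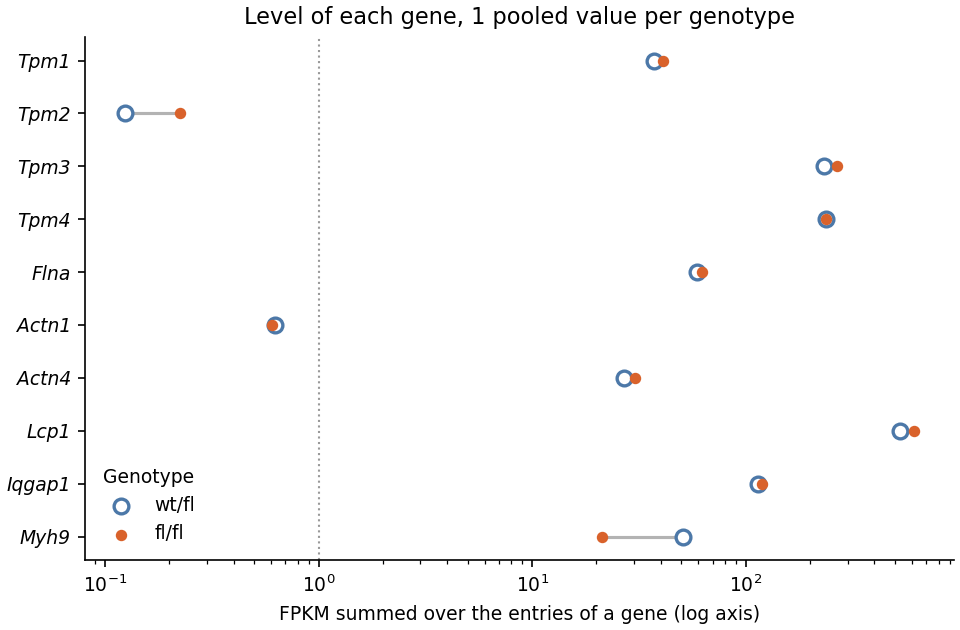
FPKM of the 9 genes and of Myh9 on a log axis, with an open circle for wt/fl and a filled circle for fl/fl, each 1 pooled value, and a dotted line at 1 FPKM. Circles lie close together for Tpm4 (237 and 238 FPKM) and far apart for Myh9 (50.6 and 21.1 FPKM), while Tpm2 and Actn1 lie left of the line.

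Promoters of Tpm3 and Lcp1 are shown because these genes had the highest ratios of the 7 compared and each have more than 1 annotated start. RefSeq (build GRCm38.p6) lists 11 starts for the 9 genes, all of which matched by symbol. The sequence after the start was found in the GENCODE annotation for 10 of the 11, and the second start of Tpm3 was the exception. In the 250 bases before each start, the GC box GGGCGG, read on both strands, occurred in 9 of 11 windows. It occurred in 32.7% of the 32851 windows of all genes. The GC content was 53.6% to 78.8% in the 9 windows with a GC box and 48.8% and 41.6% in the other 2. Its median over all windows was 52.4%, and the shares were not adjusted for it. The CArG box, the motif of the serum response factor, was read as exact matches to CCWWWWWWGG, where W is A or T. It occurred in 0 of 11 windows and in 1.47% of all windows. At so low a share, 0 of 11 does not show that the motif is rarer in these genes, and sites with a mismatch were not counted. TATAAA occurred in 0 of 11 windows and in 12.4% of all windows. The 2 windows without a GC box were the first of Tpm3 and the second of Lcp1. A match is a description of the letters only. Shown here are the parts of 3 windows outside annotated exons, on the plus strand and 5′ to 3′, with GC boxes on either strand in capitals. They lie at chr3:90072401-90072648 and chr3:90079271-90079520 for Tpm3 and at chr14:75130882-75131100 for Lcp1 (GRCm38.p6).
Tpm3, first start: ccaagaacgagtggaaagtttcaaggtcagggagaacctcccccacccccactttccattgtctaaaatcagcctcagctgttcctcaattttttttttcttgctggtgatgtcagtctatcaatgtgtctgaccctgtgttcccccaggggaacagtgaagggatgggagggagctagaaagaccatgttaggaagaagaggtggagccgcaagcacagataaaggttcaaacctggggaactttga
Tpm3, second start: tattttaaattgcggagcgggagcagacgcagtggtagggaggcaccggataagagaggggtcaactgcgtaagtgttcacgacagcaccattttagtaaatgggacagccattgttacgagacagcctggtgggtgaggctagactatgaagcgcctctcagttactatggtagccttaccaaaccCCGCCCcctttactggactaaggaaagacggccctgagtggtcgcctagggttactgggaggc
Lcp1, first start: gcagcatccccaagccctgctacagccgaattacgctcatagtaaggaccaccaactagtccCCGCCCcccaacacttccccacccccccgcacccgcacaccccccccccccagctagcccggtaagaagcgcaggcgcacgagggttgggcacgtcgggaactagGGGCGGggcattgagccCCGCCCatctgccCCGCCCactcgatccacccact
The stretch before the first start of Tpm3 held 0 GC boxes at a GC content of 48.8%, that before its second start 1 at 53.6%, and that of Lcp1 4 at 68.0%. The table's entries cannot be assigned to these starts.

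The tropomyosins summed to 508 FPKM in wt/fl cells and 546 FPKM in fl/fl cells, 7.66% higher in fl/fl. Tpm4, which encodes a tropomyosin of non-muscle cells, was at 237 FPKM in wt/fl cells and 238 FPKM in fl/fl cells. Tpm3, another tropomyosin with muscle and non-muscle forms, was at 233 FPKM in wt/fl cells and 267 FPKM in fl/fl cells (log2 ratio 0.20). Summed over entries, Tpm4 was above Tpm3 in wt/fl and below it in fl/fl, whereas the largest entry of Tpm3 alone was below Tpm4 in both genotypes. As a percent of the family's FPKM, Tpm4 made up 46.8% in wt/fl cells and 43.6% in fl/fl cells, and Tpm3 made up 45.9% and 48.8%. Tpm1 was at 37.2 FPKM in wt/fl cells and 41.1 FPKM in fl/fl cells (log2 ratio 0.14), and held 7.33% and 7.52% of the family. Tpm2, best known from muscle, was at 0.124 FPKM in wt/fl cells and 0.226 FPKM in fl/fl cells. At such a level the ratio rests on the pseudocount, and no direction is read from it. With Tpm2 near 0, follicular B cells of both genotypes had Tpm3 and Tpm4 as their main tropomyosin transcripts, and Tpm1 as a smaller part.

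Tpm3 had 4 entries, each standing for transcripts that share a coding sequence, and its difference was spread unevenly over them. Its largest entry was at 208 FPKM in wt/fl cells and 228 FPKM in fl/fl cells, and its share of the gene was 89.2% in wt/fl cells and 85.6% in fl/fl cells. The second entry was at 18.7 FPKM in wt/fl cells and 33.0 FPKM in fl/fl cells (log2 ratio 0.79), past the 1.5-fold line. Its share was 8.03% in wt/fl cells and 12.4% in fl/fl cells. The third was lower in fl/fl, at 6.36 FPKM in wt/fl cells and 4.0 FPKM in fl/fl cells, and the fourth was at 0.0011 FPKM in wt/fl cells and 1.53 FPKM in fl/fl cells. Of the gene's difference of 34.1 FPKM, 20.6 FPKM lay in the largest entry and 14.3 FPKM in the second. With the largest entry alone the log2 ratio of Tpm3 was 0.14. Entries of a gene share most of their reads, so the split is an estimate of the authors' software, and the table does not name the isoform of an entry.

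Tpm1 had 10 entries, of which 6 were listed at 0 in both genotypes. Its largest entry was at 33.9 FPKM in wt/fl cells and 36.6 FPKM in fl/fl cells, with 91.1% of the gene in wt/fl cells and 89.0% in fl/fl cells. The second was at 2.39 FPKM in wt/fl cells and 2.70 FPKM in fl/fl cells. The fourth was at 0.404 FPKM in wt/fl cells and 1.27 FPKM in fl/fl cells. In both genes, 1 entry therefore held most of the FPKM. The GENCODE M21 annotation has 16 distinct complete coding sequences for Tpm1, 5 for Tpm3 and 1 for Tpm4, so entries and annotated sequences do not pair one to one for Tpm1 and Tpm3.

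**Figure D2:**
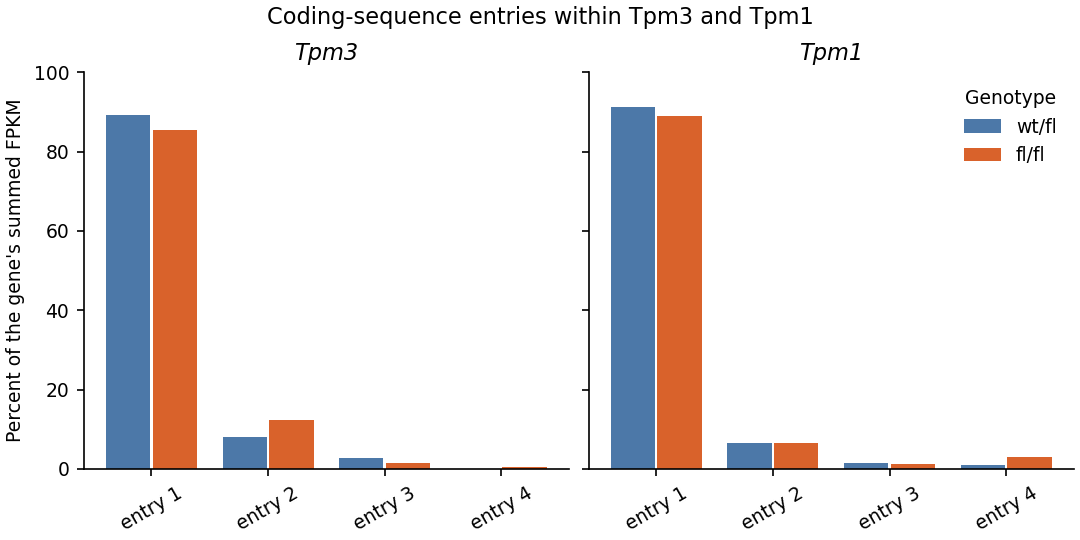
Percent of the summed FPKM of Tpm3 (left) and Tpm1 (right) in each entry above 0, with 1 bar for each genotype and entries numbered by their wt/fl level. The second entry of Tpm3 held 8.03% in wt/fl cells and 12.4% in fl/fl cells, and the first entry of each gene held over 85% in both genotypes.

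Flna encodes filamin A, a long flexible crosslinker that joins filaments at wide angles and anchors them to integrins. It was at 59.3 FPKM in wt/fl cells and 62.6 FPKM in fl/fl cells (log2 ratio 0.08). Its relative Flnc, the filamin of muscle, was listed at 0 FPKM in wt/fl and at 0.0030 FPKM in fl/fl.

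The alpha-actinins are antiparallel dimers that bundle filaments and bind integrin tails and vinculin. Actn4 was at 27.0 FPKM in wt/fl cells and 30.2 FPKM in fl/fl cells (log2 ratio 0.16). Actn1, the other non-muscle form, was at 0.626 FPKM in wt/fl cells and 0.606 FPKM in fl/fl cells. The muscle forms Actn2 (0.355 FPKM in wt/fl cells and 0.516 FPKM in fl/fl cells) and Actn3 (0.027 FPKM in wt/fl, listed at 0 in fl/fl) were also under 1 FPKM. Actn4 accordingly held 96.4% of alpha-actinin FPKM in both genotypes.

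Lcp1 encodes L-plastin, the bundling protein of white blood cells, and had the highest level of the 9 genes. It was at 525 FPKM in wt/fl cells and 615 FPKM in fl/fl cells (log2 ratio 0.23), and ranked 123 of 20433 gene names by mean level. The other plastins were under 1 FPKM, Pls1 at 0.141 FPKM in wt/fl cells and 0.124 FPKM in fl/fl cells, and Pls3 at 0.237 FPKM in wt/fl cells and 0.256 FPKM in fl/fl cells. The 9 genes together summed to 1234 FPKM in wt/fl cells and 1373 FPKM in fl/fl cells, and Lcp1 supplied 64.4% of that difference and Tpm3 24.4%. Since L-plastin is made by many kinds of white blood cell, the neutrophil markers stand beside it: of 12 in the table, 8 had a mean of at least 1 FPKM, and all 8 were lower in fl/fl, 7 of them past the 1.5-fold line. All 12 summed to 381 FPKM in wt/fl cells and 68.4 FPKM in fl/fl cells, led by S100a9 at 175 FPKM in wt/fl cells and 34.5 FPKM in fl/fl cells. None of the 12 was at 0 in both genotypes. The markers were lower where Lcp1 was higher, and their part in its level was not tested.

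Iqgap1 encodes a scaffold that binds filaments, calmodulin and the GTPases Rac1 and Cdc42. It was at 114 FPKM in wt/fl cells and 119 FPKM in fl/fl cells (log2 ratio 0.05). It held 99.5% of IQGAP FPKM in wt/fl cells and 99.4% in fl/fl cells, with Iqgap2 at 0.507 FPKM in wt/fl cells and 0.627 FPKM in fl/fl cells and Iqgap3 at 0.058 FPKM in wt/fl cells and 0.032 FPKM in fl/fl cells. Among the alpha-actinins, plastins and IQGAPs a single gene therefore held over 90% of the FPKM, whereas the tropomyosins were divided between Tpm3 and Tpm4.

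Set against the 3764 genes averaging 20 FPKM or more, the log2 ratio of Lcp1 was reached or passed by 6.19% of genes and that of Tpm3 by 8.77%. For Actn4 the share was 14.3%, for Tpm1 17.0%, for Flna 30.9%, for Iqgap1 37.6% and for Tpm4 53.0%. These shares place a gene among other genes and are no measure of its error. Lcp1 and Tpm3 thus lay above the middle 80% of these genes, and the other 5 within it. The place of Tpm3 turned on the reference and on summing its entries: among the 618 genes averaging 100 FPKM or more the middle 80% reached 0.205, above the 0.197 of Tpm3, and its largest entry alone, at 0.14, lay within either range. Lcp1 lay above both.

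**Figure D3:**
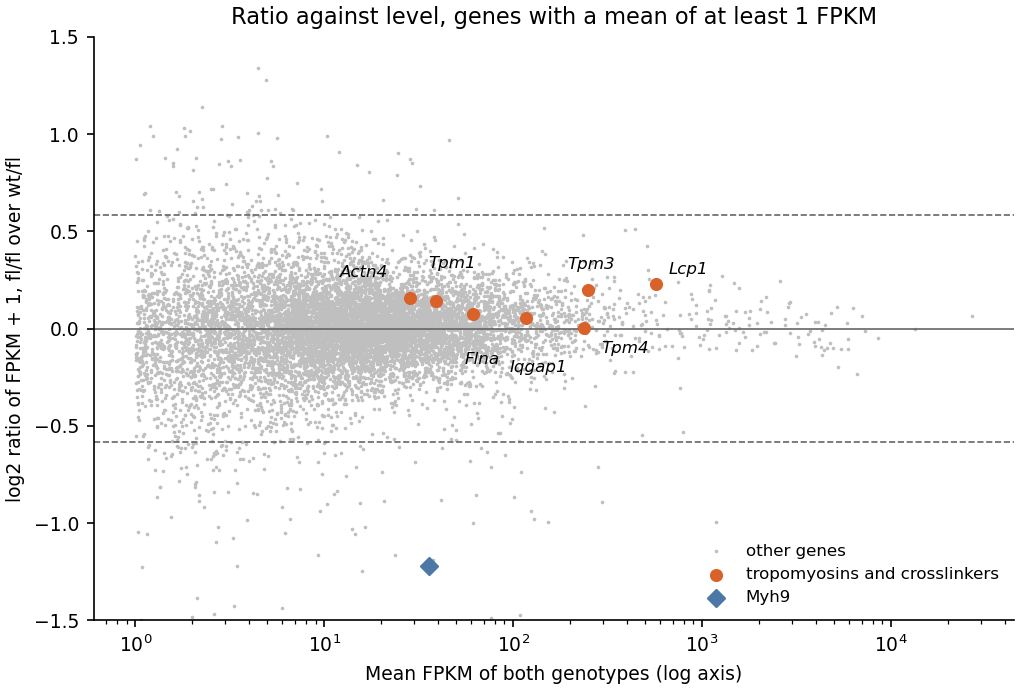
Log2 ratio of FPKM + 1, fl/fl over wt/fl, against the mean FPKM of both genotypes on a log axis, with 1 grey point for each gene averaging 1 FPKM or more and dashed lines at 1.5-fold, leaving out 17 genes beyond the axis. The 7 genes (orange) lie between 0.0047 and 0.23, with Tpm4 at -0.01 once centred on genes of at least 20 FPKM, and Myh9 (blue diamond) at -1.22.

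Actin itself was compared after the values had been seen. The sum of Actb and Actg1, the actins of non-muscle cells, was 3330 FPKM in wt/fl cells and 3689 FPKM in fl/fl cells, 10.8% higher in fl/fl, and that of the 9 genes was 11.3% higher. Relative to actin, the 9 genes stood at 37.0% in wt/fl cells and 37.2% in fl/fl cells. Tropomyosins stood at 15.2% of actin in wt/fl cells and 14.8% in fl/fl cells, and the 5 crosslinkers at 21.8% and 22.4%. Myh9 stood at 1.52% of actin in wt/fl cells and 0.573% in fl/fl cells. Taken as a sum, the 9 genes thus stood at nearly the same percent of actin in both pools, and Myh9 did not. Single genes differed from actin in both directions: Lcp1 was 17.2% higher in fl/fl and Tpm4 0.324% higher, against 10.8% for actin.

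The surrounding actin network was described by lists of genes, some of which share members, such as Actb between the SRF targets and the actin turnover genes. Their counts stand beside the 50.5% of all genes compared, and 54.3% of those averaging 20 FPKM or more, that were higher in fl/fl. Of the Arp2/3 complex, which nucleates branched filaments, 9 of 9 genes were compared, 8 were higher in fl/fl (7 when centred on genes of at least 20 FPKM), and the median log2 ratio was 0.16. Its most abundant genes were Actr3 (1017 FPKM in wt/fl cells and 1165 FPKM in fl/fl cells), Arpc2 (477 and 568 FPKM) and Arpc5 (238 and 283 FPKM). Of the actins and their turnover proteins, 21 of 21 genes were compared and 16 were higher, with a median of 0.13. They were led by Tmsb4x, the monomer-binding thymosin beta 4, at 4703 FPKM in wt/fl cells and 4968 FPKM in fl/fl cells, by Actb (2800 and 3074 FPKM) and by Tmsb10 (1153 and 1388 FPKM). None of these genes was past the 1.5-fold line.

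Serum response factor and its actin-sensing cofactors drive many cytoskeletal genes. Of 24 genes listed as their targets or as the factors themselves, 16 were compared, 12 were higher in fl/fl, and the median log2 ratio was 0.12. The most abundant were Actb, Pfn1 (1017 FPKM in wt/fl cells and 1186 FPKM in fl/fl cells) and Actg1 (529 and 615 FPKM). Among proteins that act with tropomyosin or on filaments beside it, 14 of 22 genes were compared, 11 were higher, and the median was 0.07. Coro1a, the coronin of white blood cells, was at 689 FPKM in wt/fl cells and 813 FPKM in fl/fl cells, Tagln2 at 194 and 202 FPKM and the calponin Cnn2 at 135 and 156 FPKM. Neither list held a gene past the 1.5-fold line.

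Of 28 other crosslinkers, 13 were compared, 7 were higher and 6 lower in fl/fl, near the share over all genes, and the median log2 ratio was 0.03. Eef1a1, an elongation factor that also bundles actin, was at 3469 FPKM in wt/fl cells and 3655 FPKM in fl/fl cells. Swap70, an actin-binding protein of B cells, was at 195 FPKM in wt/fl cells and 273 FPKM in fl/fl cells, and its log2 ratio of 0.48 was the highest of this list and above that of each of the 7 genes. Macf1, which joins actin to microtubules, was lower, at 220 FPKM in wt/fl cells and 202 FPKM in fl/fl cells. Of 26 binding partners of the crosslinkers, 24 were compared, 15 were higher and 9 lower, with a median of 0.05, led by Rac2 (250 FPKM in wt/fl cells and 280 FPKM in fl/fl cells), Calm2 (235 and 260 FPKM) and Cdc42 (230 and 246 FPKM). Neither list held a gene past the 1.5-fold line. Of 8 class II myosin genes, 4 were compared, and Myh9 alone was past the 1.5-fold line. The light chains Myl12b (470 FPKM in wt/fl cells and 501 FPKM in fl/fl cells), Myl6 (429 and 433 FPKM) and Myl12a (63.4 and 74.2 FPKM) were higher in fl/fl, Myl6 only before the ratios were centred on genes of at least 20 FPKM.

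**Figure D4:**
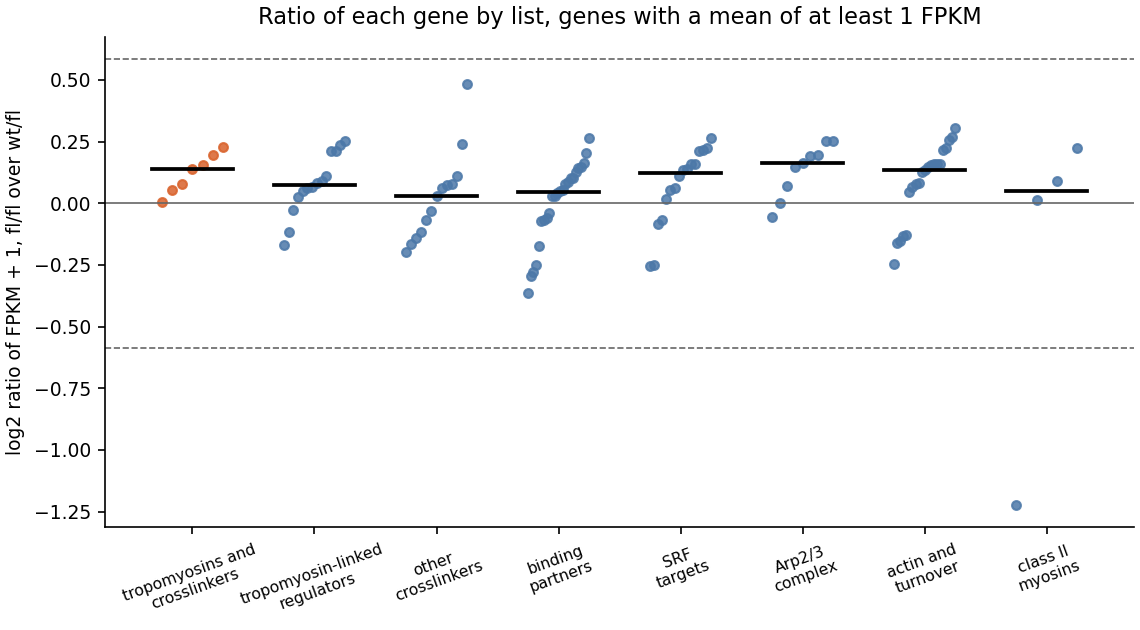
Log2 ratio of FPKM + 1, fl/fl over wt/fl, for each gene averaging 1 FPKM or more, by list, with a bar at each list's median and dashed lines at 1.5-fold. The medians run from 0.03 in the other crosslinkers to 0.16 in the Arp2/3 complex, and Myh9 at -1.22 is the single point past a line.

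The labelled cell type was checked against its markers. All 12 markers of follicular B cells were above 20 FPKM on average, and they summed to 19058 FPKM in wt/fl cells and 19841 FPKM in fl/fl cells, led by Cd74 at 7307 FPKM in wt/fl cells and 7237 FPKM in fl/fl cells. Fcer2a, the gene of CD23, was at 439 FPKM in wt/fl cells and 588 FPKM in fl/fl cells, and was singled out after its values were seen because its promoter drives Cre. Platelets and smooth muscle are rich in tropomyosins, filamin A and alpha-actinin. The 10 platelet markers summed to 19.4 FPKM in wt/fl cells and 21.0 FPKM in fl/fl cells, most of it Itgb3 at 16.4 FPKM in wt/fl cells and 17.0 FPKM in fl/fl cells, and 8 of 10 were under 1 FPKM as a mean of both genotypes. The 12 stromal and muscle markers summed to 3.84 FPKM in wt/fl cells and 4.58 FPKM in fl/fl cells, led by Tagln at 2.17 and 2.43 FPKM, with Col3a1 and Pdgfra at 0 in both genotypes. The part of platelets or muscle cells in the levels of the 9 genes was not tested.

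The remaining lists differed in direction. The 8 endothelial markers summed to 71.7 FPKM in wt/fl cells and 80.5 FPKM in fl/fl cells, of which Pecam1 was 71.0 FPKM in wt/fl cells and 80.0 FPKM in fl/fl cells, and the other 7 were under 1 FPKM as a mean of both genotypes. The macrophage and monocyte markers, 11 of 12 in the table, summed to 89.6 FPKM in wt/fl cells and 60.4 FPKM in fl/fl cells, led by Lyz2 at 72.6 and 44.9 FPKM. The 11 T and NK cell markers summed to 37.5 FPKM in wt/fl cells and 31.1 FPKM in fl/fl cells, led by Lck at 14.5 FPKM in both. Nkg7, named after its values were seen as a gene of cytotoxic cells and the one T and NK cell marker past the 1.5-fold line, was at 9.01 FPKM in wt/fl cells and 5.33 FPKM in fl/fl cells, which was most of the list's difference. The erythroid markers, 6 of 10 in the table under the listed symbols, summed to 64.6 FPKM in wt/fl cells and 19.4 FPKM in fl/fl cells, led by the beta-globin entry Beta-s at 52.0 and 7.08 FPKM. None of these lists had a gene at 0 in both genotypes. Within these lists the genes did not all go one way: of those averaging 1 FPKM or more, 2 of 6 macrophage, 2 of 8 T and NK cell (1 when centred on genes of at least 20 FPKM) and 1 of 2 erythroid markers were higher in fl/fl, so the summed levels mostly follow the leading gene in the macrophage and erythroid lists. The part of other cells in the levels of the 9 genes was not tested.

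**Figure D5:**
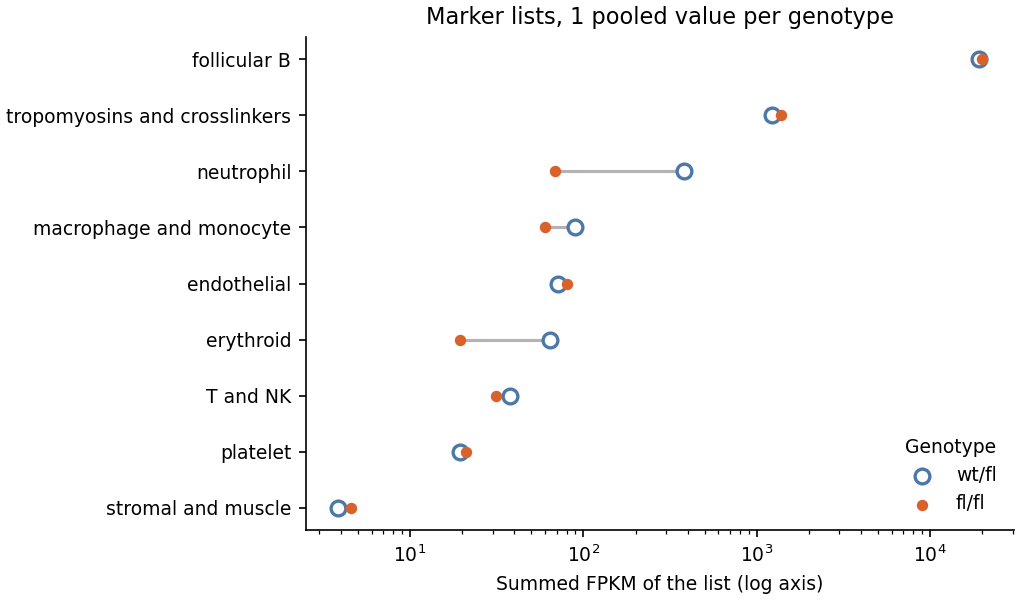
Summed FPKM of each marker list and of the 9 genes on a log axis, with an open circle for wt/fl and a filled circle for fl/fl, each 1 pooled value. The neutrophil sum lies at 381 FPKM in wt/fl cells and 68.4 FPKM in fl/fl cells, whereas the 9 genes lie at 1234 and 1373 FPKM.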

How the data were processed

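The authors deposited 1 table of FPKM in the layout of Cuffdiff, in which transcripts with the same coding sequence make up 1 entry and each genotype has 1 value, pooled over 3 samples. The submitters' processing notes name Bowtie, TopHat and Cufflinks and the builds mm10 and GRCm38; versions and options are not given in the sources used here. Positions in the table are not those of GRCm38 (Myh9 starts at 77591018 there and at 77760587 in GENCODE M21), so none was used otherwise. The table's columns of status, fold change, test statistic, p-value, q-value and significance are the authors' own comparison and were not used.

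FPKM was summed per gene name with Python 3.11.15, pandas 2.3.3 and numpy 2.4.6, and figures were drawn with matplotlib 3.10.9. A pseudocount of 1 FPKM and a mean of at least 1 FPKM were applied, and 44 entries whose symbol reads as a date were left out. The sums and ratios were run on simulated data with preset ratios and no noise, which checks the arithmetic only and not the error of any value. Depth is unknown: between 0 and 0.01 FPKM lay 1106 entries of the wt/fl column and 1235 of the fl/fl column, fractions from which read numbers cannot be told.

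The members and lists were chosen with earlier results of these data known. Named are the 9 genes, their paralogs (1 is not reported here), Myh9, the 3 most abundant genes of a list and any past the 1.5-fold line, and of a marker list its most abundant gene and markers at 0 in both genotypes. Alternatives were other pseudocounts, filters, fold lines and scalings, and the largest entry alone.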

Additional observations from a re-analysis of the deposited data

How the results depend on the processing

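No paired analysis was possible because the table gives 1 pooled value per genotype, and for the same reason no replicate could be left out. Without replicates or counts, a log2 ratio was taken as unmoved where it differed by less than 0.1, and a count where it stayed within 1.5 times. Of 64 alternative values, 62 met this. The other 2 were the log2 ratio of Tpm2, which was 0.12 with a pseudocount of 1, 0.54 with 0.1 and 0.86 with none, as its FPKM lies below the pseudocount. The median log2 ratio of the genes compared lay between 0.12 and 0.14 over the filters and scalings tried and a pseudocount of 0.1. The number past the fold line was 0 at 1.5-fold and at the lower line tried, which fixed the 0 at 2-fold in advance. A filter of at least 5 FPKM kept the same 7 genes, all averaging above 20 FPKM, so its values could not move either. These fixed values are among the 62. The number higher in fl/fl was 7, 8 with no filter (Tpm2 then counted) and 6 with centring on genes of at least 20 FPKM, where Tpm4 was at -0.01. That centring, and the count of genes higher in fl/fl, were chosen after seeing the data. Unknown depth and the missing spread between mice limit every value.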
